A study of Mus musculus with 24 samples.

Results

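Small intestinal organoids that had received 6 Gy of gamma radiation were compared with organoids that had not, both 48 h after the time of irradiation. The comparison took 4 irradiated and 4 control samples, 8 of the 24 samples of the series, chosen by the condition and time in their labels. The organoids came from C57BL/6 mice. Their medium held Noggin, R-spondin and EGF (50 ng/ml), and 3 days passed between reseeding and irradiation. The irradiated group at 48 h had 6 Gy and the control group at 48 h had none, and both groups shared strain, medium and time in culture. No transgene or other allele is named in the labels. The labels do not say how many mice the organoids came from or whether samples of a group were separate cultures, so p-values here reflect only how far the samples of a group spread, and that spread may be technical. The pairs of groups at 24 h and 96 h, each with its own controls, were used only to ask whether an effect seen at 48 h differed at the other times.

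RNA levels come from Illumina mouse BeadChips, on which a brighter probe means a more abundant transcript. All 8 arrays of 48 h lay on 1 chip, controls in the first positions and irradiated samples in the last, so position on the chip and irradiation cannot be told apart. Irradiated arrays detected 12890 to 14751 of 25697 probes and control arrays 14014 to 14120 (13660 ± 783 against 14071 ± 49.3, SD, n = 4 each, exact two-sided permutation p = 0.457). In a principal component analysis of the 8 arrays the first component held 48.07% of the variance and put all irradiated arrays on one side and all controls on the other. Control replicate 4 stood apart on the second component (25.23% of the variance).

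Organoids of this kind are epithelium without the other tissues of the gut wall. Of 10 epithelial markers 9 were detected well enough to be tested, and their summed level was 24174 to 28581 units in irradiated samples and 18671 to 24737 in controls. Of 10 mesenchymal markers 8 were not detected on enough arrays to be tested, the collagen genes Col1a1, Col1a2 and Col3a1 and the receptor genes Pdgfra and Pdgfrb among them. The other two, Vim and Acta2, were higher in irradiated organoids (log2 difference 0.89 and 0.87), with a summed level of 973 to 1870 units against 628 to 1201, and their part in the results below was not tested. Immune markers (3 of 10 tested, 93 to 110 units in irradiated samples against 96 to 107 in controls) and endothelial markers (2 of 6 tested, 53 to 73 against 55 to 63) were near the dim end of the arrays, and none of 4 erythroid markers was tested.

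Ionizing radiation breaks DNA. The breaks activate the kinases ATM and ATR and through them p53, a transcription factor that turns on genes of cell cycle arrest, apoptosis and its own inhibition. In the intestine the dividing cells at the crypt base, which carry Lgr5 and live on Wnt and Notch signals, are the most radiosensitive, and crypts that lose them regrow from other cells. Regrowing crypts are known for a fetal-like programme marked by Ly6a (Sca-1) and annexin genes, which depends on YAP and is accompanied by ligands of the EGF receptor. In bulk RNA, a change in how many cells of a type are present and a change in RNA per cell cannot be told apart, and this holds for every gene group below.

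Of 10798 genes tested, 785 were higher (7.27%) and 672 lower (6.22%) in irradiated than in control organoids at 48 h (limma, Benjamini-Hochberg adjusted p under 0.05, here the meaning of "rose", "fell" and "called"). All differences are irradiated minus control on the log2 scale, where 1 unit is a 2-fold change, and ± marks the standard error of a difference. Of the genes called, 197 rose and 39 fell by 2-fold or more. Irradiated and control values did not overlap for 2209 genes (20.5% of those tested), among them 713 of the genes that rose and 598 of those that fell. Scaling each array by its median in place of quantile normalization shifted the median difference of all genes to -0.21, against -0.04, and changed the split to 400 higher and 932 lower (30% higher, against 53.9%). In the plot of the log2 difference against mean level, rises of 2-fold or more lay at dim and bright levels alike, while falls of 2-fold or more were few.

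**Figure D1:**
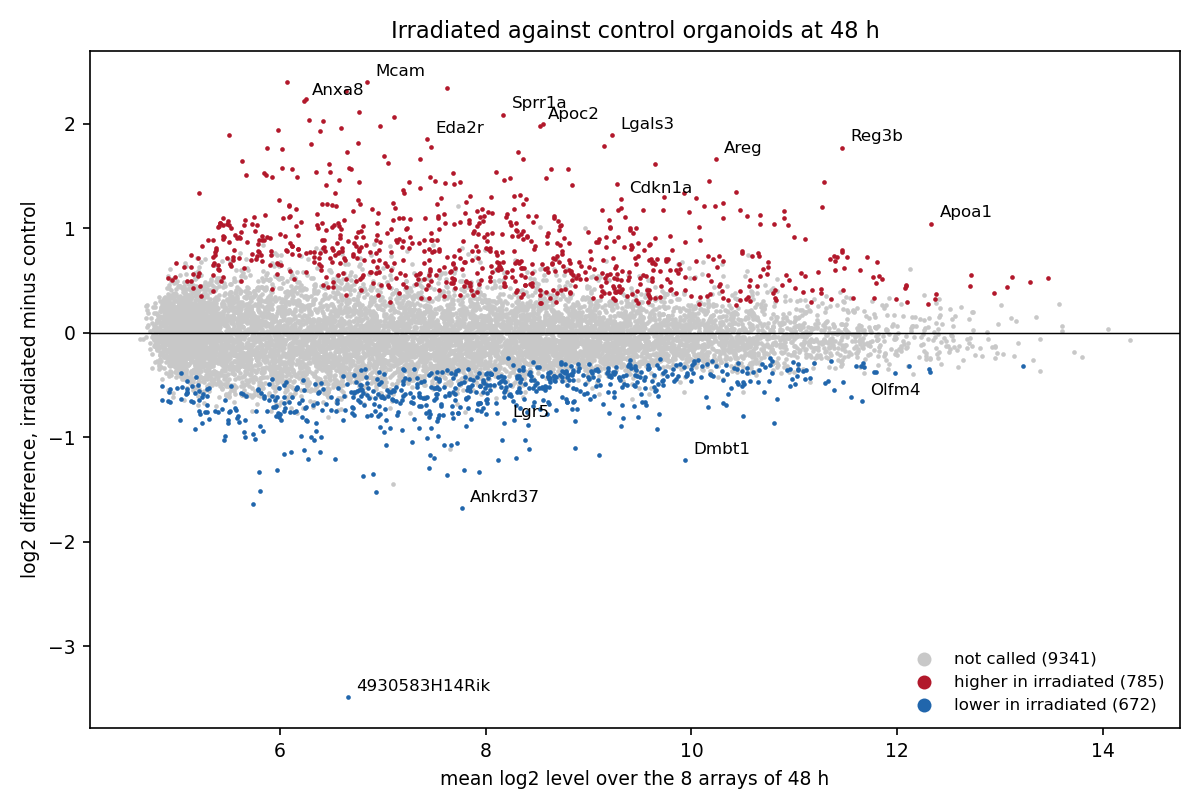
Each point is 1 of the 10798 genes tested, with its mean log2 level over the 8 arrays of 48 h on the x axis and the log2 difference between irradiated and control organoids on the y axis. Points in colour passed the test, 785 above 0 and 672 below it, and the labelled genes are described in the text.

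The arrest gene Cdkn1a, which encodes the CDK inhibitor p21 and is the standard p53 target, read 9.75, 9.82, 10.10 and 10.16 in the 4 irradiated samples, against 8.82, 8.48, 8.52 and 8.89 in the controls (log2 levels). The groups did not overlap, and the difference was 1.28 ± 0.12 (2.43-fold, limma adjusted p = 8.71e-08). The death receptor gene Eda2r read 8.40, 8.02, 8.5 and 8.52 in irradiated samples, against 6.48, 6.65, 6.42 and 6.46 in controls, a difference of 1.86 ± 0.17. Every irradiated value lay above every control value by more than 1 unit. Of 45 p53 targets tested, 21 rose and 3 fell, and the median difference was 0.32, against -0.04 over all genes.

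Among the arrest genes 6 of 12 rose and none fell. Zmat3, an RNA-binding regulator of splicing, rose by 1.57 ± 0.15, the kinase gene Plk2 by 1.49 ± 0.16 and the microtubule regulator gene Psrc1 by 1.49 ± 0.16. Among the death genes 6 of 9 rose, with Bax (1.01) and Bbc3 (0.84), which encode pro-death proteins of the BCL2 family, and Fas (0.67) beside Eda2r. Of the feedback genes, Mdm2, the ubiquitin ligase that destroys p53, rose by 0.68 ± 0.14 and Trp53inp1 by 1.34 ± 0.13, while Trp53 itself had a difference of -0.19 and was not called. The Akt and mTOR branch was split. Phlda3, a p53-induced inhibitor of Akt, rose by 1.73 ± 0.18 and Ddit4l by 1.94 ± 0.24, whereas the related mTOR inhibitor gene Ddit4 fell by 0.37. Other members of the list that fell were the glutaminase gene Gls2 (-0.65) and Ddb2 (-0.59), a DNA damage sensor of nucleotide excision repair. The irradiated values of Ddb2, 7.43, 7.26, 7.49 and 7.20, all lay under its control values of 8.0, 7.88, 7.82 and 8.05. Under median scaling the calls of Bbc3 and Mdm2 were lost (adjusted p = 0.118 and 0.204), as were those of Ddit4 and Gls2 when single arrays were left out (adjusted p up to 0.167 and 0.0901).

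A p53 response element was searched for in the 250 bases upstream of each annotated transcription start of a gene. Sequence was RefSeq promoter sequence of build GRCm38.p6, in which a gene could have several starts. The element was taken as 2 half-sites of 10 bases, with at most 1 base between them. At most 3 mismatches to the consensus were allowed, none of them at the fixed C and G of each half-site core. The search found it in 9 of 35 tested p53 targets that had a promoter in the table (25.7%), in 5 of 17 of those that rose, and in 273 of 8226 of all genes tested (3.32%). The 5 that rose are shown because each carries the element within the 250 bases before an annotated start. They are Cdkn1a (chr17:29090888-29090978, plus strand, 1 mismatch), Ccng1 (chr11:40755422-40755521, minus strand, 1 mismatch), Bax (chr7:45467039-45467139, minus strand, 2 mismatches), Bbc3 (chr7:16309446-16309545, plus strand, 3 mismatches) and Dcxr (chr11:120727346-120727446, minus strand, 3 mismatches). Sequences run 5′ to 3′ along the gene, and capitals mark the element.
Cdkn1a: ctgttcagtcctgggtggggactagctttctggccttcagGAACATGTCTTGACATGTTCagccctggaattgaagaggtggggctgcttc
Ccng1: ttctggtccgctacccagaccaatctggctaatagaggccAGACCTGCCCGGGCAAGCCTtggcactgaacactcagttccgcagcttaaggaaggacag
Bax: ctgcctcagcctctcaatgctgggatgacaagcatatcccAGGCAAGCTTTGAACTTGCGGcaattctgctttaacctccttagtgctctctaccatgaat
Bbc3: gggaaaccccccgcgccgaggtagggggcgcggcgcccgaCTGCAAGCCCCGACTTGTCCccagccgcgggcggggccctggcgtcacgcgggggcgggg
Dcxr: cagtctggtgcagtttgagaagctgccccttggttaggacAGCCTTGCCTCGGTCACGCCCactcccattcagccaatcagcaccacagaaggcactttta
The element of Cdkn1a ends 31 bases before an annotated start of the gene and that of Bax 180 bases before one. Distances to other starts of these genes were not examined. Ccng1, which encodes cyclin G1, rose by 1.21 ± 0.12 and Dcxr, a carbonyl reductase gene, by 1.10 ± 0.16. A match of letters is a description and not evidence of binding.

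In the BCL2 family, which sets the threshold for apoptosis, 3 of 10 pro-death genes rose (Bax, Bbc3 and Bok) and 1 of 4 pro-survival genes, Bcl2l1 (Bcl-xL). Bcl2l1 had the larger difference, 1.2, but also the larger error (± 0.38, adjusted p = 0.0402). Its irradiated values of 7.34, 7.28, 8.34 and 7.89 overlapped the controls (6.40, 6.39, 5.90 and 7.36) through control replicate 4. Bok, by contrast, differed by only 0.56 ± 0.08 with no overlap. Pmaip1 (Noxa), Bid and Mcl1 were not called (0.27, -0.36 and 0.02). The call of Bcl2l1 was lost without any of 5 of the 8 arrays (adjusted p up to 0.146), and that of Bok under median scaling (adjusted p = 0.32).

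Genes of cell division were lower, by small steps. Of 31 genes of mitosis 9 fell and none rose, with a median of -0.32. Of the 31 differences 30 were negative, against 5981 of all 10798. Cyclin A2 (Ccna2) read 8.94, 8.76, 8.63 and 8.65 in irradiated samples, against 9.54, 9.14, 9.16 and 9.58 in controls, a difference of -0.61 ± 0.14. The values did not overlap, although the nearest pair was 0.20 apart. The spindle checkpoint kinase gene Ttk (-0.65), the kinetochore gene Ndc80 (-0.62) and the mitotic kinesin gene Kif4 (-0.55) also fell, although with the mean of a gene's probes in place of the brightest the calls of Ndc80 (-0.22, limma adjusted p = 0.506) and Kif4 (adjusted p = 0.0521) were lost. Cdk1 (on the array as Cdc2a), cyclin B1 (Ccnb1) and Plk1 were lower by 0.22 to 0.34 and were not called. At 24 h 26 of the 31 genes had fallen (median -0.74), against 1350 of all 10798 genes. At 96 h none was called (median 0.06), against 185 higher and 366 lower of all genes. Tested directly, the effect at 48 h differed from that at 24 h for 1 of the 31 and from that at 96 h for 2. Over all 10798 genes these counts were 107 and 377.

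Replication and repair showed the same small falls. Of 44 replication genes 12 fell and none rose (median -0.32), of which 2 of 13 were in licensing and origin firing, 6 of 21 were polymerase or fork genes and 4 of 10 were genes of nucleotide supply and S phase entry. The S phase transcription factor genes E2f1 and E2f2 fell by 0.77 and 0.58, the primase subunit genes Prim1 and Prim2 by 0.61 and 0.54, and the polymerase delta gene Pold1 by 0.67. The call of Prim2 was lost without any of 6 of the 8 arrays (adjusted p up to 0.13). The helicase genes Mcm2 to Mcm7 lay between -0.25 and 0.02 and none was called. Of 30 repair genes 9 fell, led by Brca2 (-0.80), a gene of homologous recombination, the checkpoint kinase gene Chek1 (-0.69) and the helicase gene Blm (-0.64). With the mean of its probes the difference of Blm was -0.30 and was not called (limma adjusted p = 0.22). Chek1 read 8.99, 9.17, 8.92 and 8.82 in irradiated samples, all lower than the nearly equal controls (9.68, 9.66, 9.66 and 9.67).

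Genes of the G1 phase moved both ways. The D-type cyclin genes Ccnd1, Ccnd2 and Ccnd3 rose by 0.48, 0.57 and 0.39, as did the CDK inhibitor gene Cdkn2b (p15), by 0.56, while the inhibitor genes Cdkn2c (p18) and Cdkn2d (p19) fell by 0.74 and 0.52 and Cdk2 by 0.38. The 4 rises were lost under median scaling (adjusted p = 0.284 to 0.708), and the calls of Ccnd3 and Cdk2 also rested on single arrays (adjusted p up to 0.0869 and 0.0875 without one). Of 49 histone genes 45 had a positive difference (median 0.31), against 4815 of all 10798 genes. Yet only 3 of the 49 rose and 1 fell, against 7.27% and 6.22% of all genes. The linker histone gene Hist1h1c had the largest difference of the 3 that rose, 1.00 ± 0.12, with 9.78 to 10.01 in irradiated samples and 8.77 to 9.05 in controls. Without control replicate 4, 6 histone genes rose in place of 3 and the median difference was 0.70, and without control replicate 3 it was 0.05.

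At the crypt base 5 of 17 stem cell genes fell and none rose. Lgr5, the R-spondin receptor that defines these cells, read 7.69, 7.60, 7.81 and 7.90 in irradiated samples, against 8.62, 8.61, 8.40 and 8.82 in controls (-0.86 ± 0.13). Olfm4 read 11.42, 11.31, 11.36 and 11.23, against 11.95, 11.99, 12.13 and 11.86 (-0.65 ± 0.10). Both pairs of groups were well apart, and the largest fall was that of Clca4 (-1.17). Ascl2, the stem cell transcription factor, had a difference of 0.42 and was not called, though it was called higher in 6 of 23 other settings. Among Wnt targets Axin2 (-0.55) and Tnfrsf19 (-0.71) fell, Ccnd1 rose, and Myc, Rnf43, Znrf3 and Sox4 were not called, so 3 of 9 moved. In the Notch pathway 4 of 16 fell (2 without irradiated replicate 4) and 1 rose. The ligand gene Jag1 rose by 0.98 ± 0.12. The ligand gene Dll1 fell by 0.86, the Fringe gene Mfng, whose product modifies Notch, by 0.99, and Atoh1, the transcription factor of the secretory lineage, by 0.69. Hes1, the Notch target that represses Atoh1, had a difference of -0.18 and was not called. The call of Atoh1 was lost without any of 6 arrays (adjusted p up to 0.0684).

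**Figure D2:**
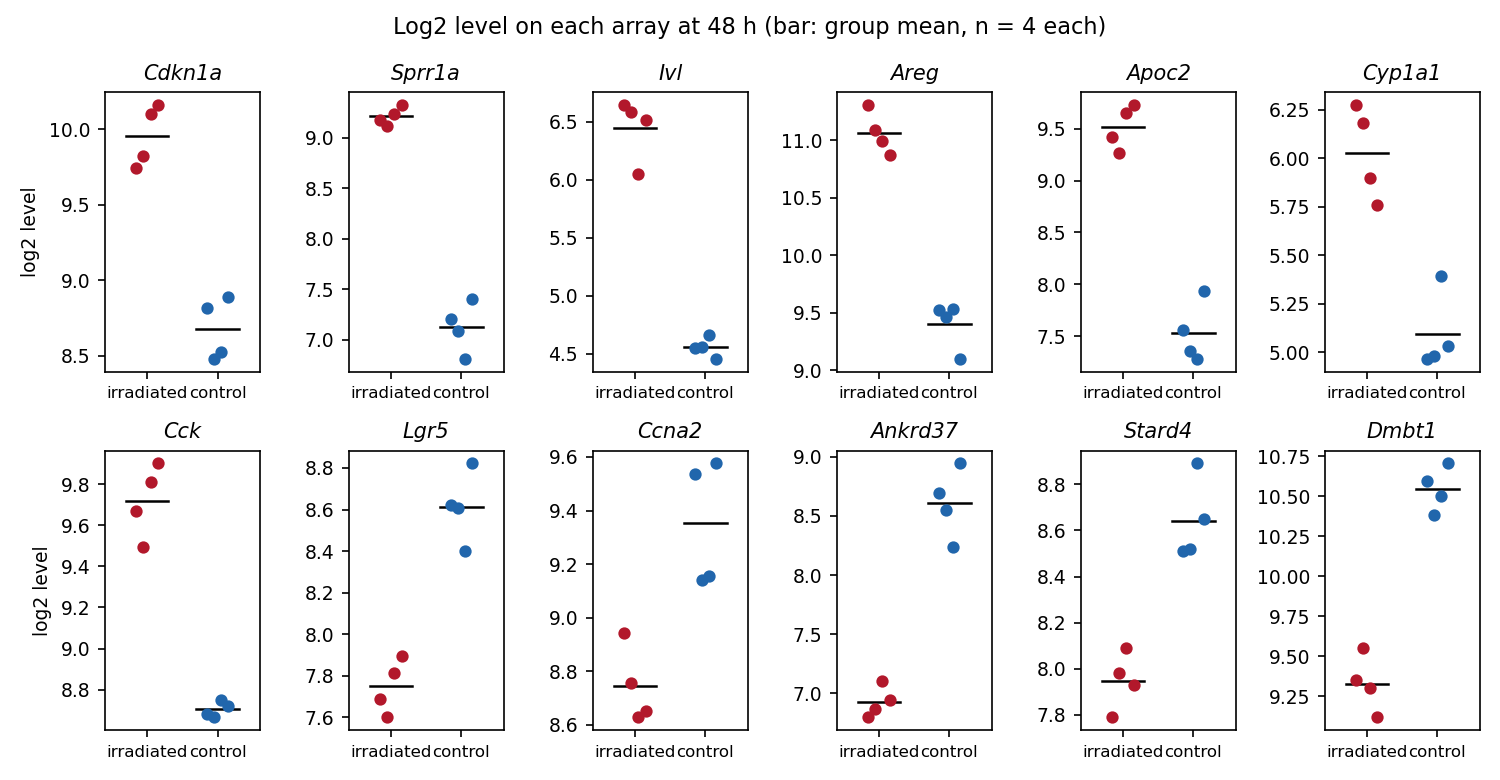
Each point is 1 array of 48 h, with the log2 level of the gene named above its panel on the y axis, irradiated samples on the left and controls on the right, and a bar at each group mean. Irradiated values lie above all controls for Cdkn1a, Sprr1a, Ivl, Areg, Apoc2, Cyp1a1 and Cck and below all controls for Lgr5, Ccna2, Ankrd37, Stard4 and Dmbt1.

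The fetal-like programme had the highest median difference of the gene lists used, 1.34. Of 25 tested members 22 rose and none fell. Mcam, an adhesion molecule gene, read 8.13, 8.36, 7.72 and 7.99 in irradiated samples, against 5.61, 6.19, 5.87 and 4.95 in controls (2.40 ± 0.23). Cd86, known as a costimulatory molecule of immune cells, read 7.72, 7.97, 7.68 and 7.91, against 5.88, 5.74, 5.80 and 5.41 (2.11 ± 0.19). The lowest irradiated value of either gene was more than 1 unit above its highest control. Of 10 immune markers 3 were tested, near the dim end of the arrays. None of them was called, and 1 was called higher without irradiated replicate 3. A part of immune cells in the rise of Cd86 was not tested. Psca, a GPI-anchored surface protein gene, rose by 2.07, the interleukin 1 receptor antagonist gene Il1rn by 1.98, the tetraspanin-like gene Tm4sf4 by 1.79 and mesothelin (Msln) by 1.62. Of the annexin and S100 genes 10 of 11 rose, from S100a10 (0.34) to Anxa8 (2.22 ± 0.21). Ly6a read 10.07, 10.00, 10.15 and 10.25 in irradiated samples, against 9.08, 8.80, 8.82 and 9.07 in controls. Its difference of 1.17 ± 0.12 was smaller than at 24 h, where it was 2.12 (adjusted p of the change in effect = 0.00673). Anxa13 (0.19) and Ly6e (0.19) were among the members not called. The list was drawn up with earlier results of these samples known, so its direction is no independent evidence.

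Proteins of the cornified envelope, which belongs to skin and other squamous epithelium, were among the largest single rises. Sprr1a read 9.18, 9.11, 9.24 and 9.33 in irradiated samples, against 7.20, 7.08, 6.81 and 7.41 in controls (2.09 ± 0.16). Involucrin (Ivl) read 6.64, 6.58, 6.05 and 6.51 in irradiated samples and was not detected in any control, so it was at least 2.61-fold higher (measured means 6.45 and 4.55, adjusted p = 6.07e-09). Loricrin (Lor) rose by 1.17 ± 0.34, with 7.11 to 7.62 in irradiated samples and 5.83 to 6.69 in controls. Its call was lost without any of 5 arrays (adjusted p up to 0.0732). Of the list's other members, the differences of Sprr2b (0.62), Krt7 (0.52), Sfn (0.00) and Sprr2a (-0.14) were not called. Keratin genes of stratified or simple epithelium rose in 4 of 18 cases, Krt20 (1.21), Krt15 (1.12), Krt4 and Krt23 (0.54). Krt4 was not detected in any control and was found on 3 irradiated arrays, and it was at least 1.3-fold higher (measured means 5.45 and 4.82, adjusted p = 0.0175). The serine protease inhibitor genes Serpinb9b (1.73), Serpinb6b (1.31) and Serpinb1a (0.91) were among 5 of 16 serpin genes that rose.

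AP-1, the dimer of FOS and JUN proteins, binds the letters TGANTCA, where N is any base. The same 250 bases held these letters on either strand in 485 of 8226 genes tested (5.9%) and in 72 of 588 of all genes that rose (12.2%). They were in 6 of the 14 fetal-like genes with a promoter in the table (42.9%), all of which rose. Of 6 squamous genes tested with a promoter 4 held them, among them all 3 that rose. Overlap with other motifs was not examined. The motif was chosen after the values were seen. The windows of Sprr1a (chr3:92485951-92486037, minus strand), Ivl (chr3:92573805-92573891, minus strand), Lor (chr3:92083144-92083230, minus strand), Il1rn (chr2:24336679-24336765, plus strand), Ecm1 (chr3:95739587-95739673, minus strand) and Gja1 (chr10:56377241-56377299, plus strand) are shown, with every match in capitals, because these genes rose together.
Sprr1a: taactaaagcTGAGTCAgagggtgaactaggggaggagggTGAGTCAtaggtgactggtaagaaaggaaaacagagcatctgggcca
Ivl: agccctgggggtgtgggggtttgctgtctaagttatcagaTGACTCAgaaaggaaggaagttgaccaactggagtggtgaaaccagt
Lor: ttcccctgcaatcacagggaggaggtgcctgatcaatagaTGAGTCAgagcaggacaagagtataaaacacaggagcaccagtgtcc
Il1rn: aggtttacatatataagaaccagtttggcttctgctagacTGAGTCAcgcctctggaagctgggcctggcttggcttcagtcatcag
Ecm1: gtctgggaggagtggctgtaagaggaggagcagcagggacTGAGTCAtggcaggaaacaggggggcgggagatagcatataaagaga
Gja1: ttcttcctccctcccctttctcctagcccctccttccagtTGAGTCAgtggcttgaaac
Sprr1a, Ivl and Lor lie in one stretch of chromosome 3. Sprr1a holds the motif at 2 places within the stretch shown. Ecm1, which encodes a secreted matrix protein, rose by 1.51 ± 0.16 and the connexin 43 gene Gja1 by 1.5 ± 0.23.

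Of the AP-1 and other immediate early genes, which answer growth factor signals within minutes, 7 of 13 rose and 1 fell. Fos read 8.21, 8.25, 8.28 and 8.10 in irradiated samples, against 6.99, 6.78, 6.86 and 7.07 in controls (1.29 ± 0.20), and Egr1 10.75, 10.90, 10.55 and 10.58, against 9.33, 9.32, 9.62 and 9.32 (1.30 ± 0.11). In both cases the groups were separated by nearly 1 unit or more. Jun went the other way, with 7.64, 7.73, 7.40 and 7.68 in irradiated samples and 8.38, 8.58, 8.43 and 7.95 in controls (-0.72 ± 0.17). The ERK phosphatase gene Dusp6, a feedback gene of the same pathway, rose by 0.92 ± 0.09. At 96 h the median of the 13 genes was -0.24, against 0.62 at 48 h, and the effect at 48 h differed from that at 96 h for 8 of them.

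Ligands of the EGF receptor rose in 3 of 5 cases. Amphiregulin (Areg) read 11.31, 11.09, 10.99 and 10.87 in irradiated samples, against 9.52, 9.46, 9.54 and 9.10 in controls (1.66 ± 0.12, 3.16-fold). Betacellulin (Btc) read 7.97, 7.97, 8.13 and 8.14, against 6.65, 6.59, 6.42 and 7.01 (1.38 ± 0.17), and Hbegf rose by 1.08 ± 0.13. The groups overlapped for none of these ligands, in cultures whose medium already held EGF. Epgn (0.37, detected in no control) and Tgfa (0.08) were not called, nor were the inhibitor genes Errfi1 (0.13), Lrig1 (-0.21) and Lrig3 (-0.12). The receptor gene Egfr had a difference of 0.60 that missed the threshold (limma adjusted p = 0.0539), and it was called in 12 of 23 other settings. YAP targets were called in 3 of 8 cases, the tissue factor gene F3 (1.62 ± 0.16), Cyr61 (0.76) and Ctgf (0.74), while Ankrd1 (0.69) was not. The calls of Cyr61 and Ctgf were lost when single arrays were left out (adjusted p up to 0.0591 and 0.187). The urokinase receptor gene Plaur, whose product focuses protease activity at the cell surface, rose by 1.37 ± 0.17, its ligand gene Plau by 0.92.

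**Figure D3:**
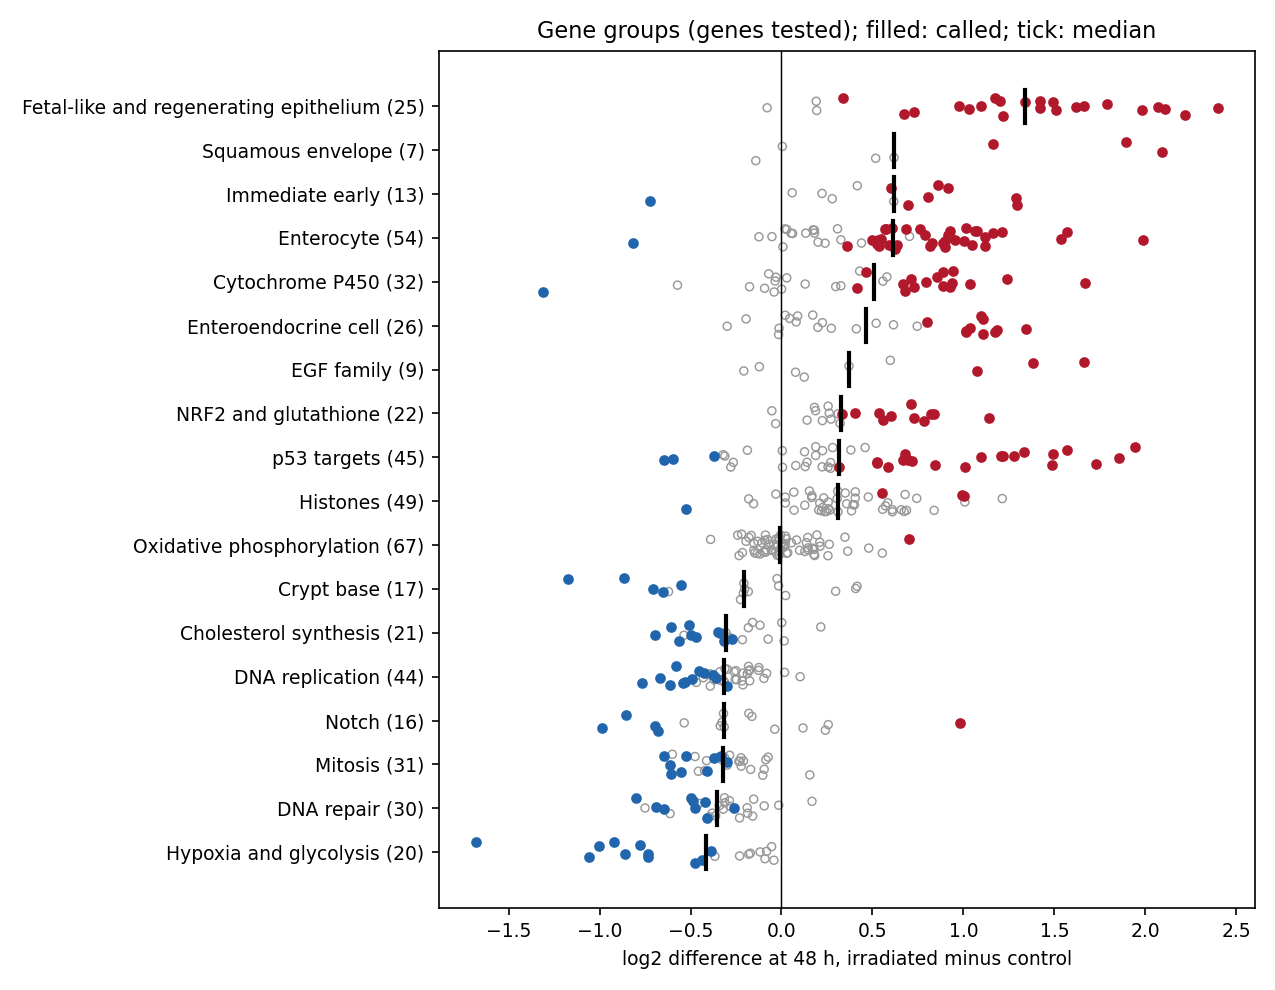
Each point is 1 tested gene of the group named on the left, with its log2 difference between irradiated and control organoids at 48 h on the x axis, and a vertical tick marks the group's median. Filled points passed the test and open points did not, and groups run from the highest median (fetal-like epithelium, 1.34) to the lowest (hypoxia and glycolysis, -0.41).

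Genes of absorptive enterocytes rose broadly, most of all those of fat absorption. Of 54 tested 36 rose and 1 fell (median 0.62). In lipid handling 16 of 18 rose. The apolipoprotein gene Apoc2, whose product activates lipoprotein lipase, read 9.42, 9.27, 9.65 and 9.73 in irradiated samples, against 7.56, 7.35, 7.28 and 7.94 in controls (1.99 ± 0.16). Apoa1, a component of chylomicrons and HDL and one of the brightest genes of the group, read 12.86, 12.88, 12.75 and 12.92, against 11.89, 11.85, 11.78 and 11.72 (1.04 ± 0.12). Neither gene overlapped between groups. The genes for the enzymes that rebuild triglycerides, Dgat2 (1.16), Mogat2 (1.12) and Dgat1 (0.36), rose, as did the fatty acid receptor gene Cd36 (0.93), the lipid loading protein gene Mttp (0.69) and the sterol exporter genes Abcg5 (0.83) and Abcg8 (0.53). Fabp6, the bile acid binding protein gene of the ileum, was not called (0.02). Of these genes Dgat1, Mttp, Abcg5 and Abcg8 lost their call under median scaling (adjusted p = 0.073 to 0.659).

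Among uptake genes 9 of 14 rose, with the peptide transporter gene Slc15a1 (1.57), the glucose transporter genes Slc2a2 (1.07) and Slc5a1 (0.76) and the folate transporter gene Slc46a1 (1.06). The bile acid transporter gene Slc10a2 (0.24) and the fructose transporter gene Slc2a5 (0.44) were not called. Brush border peptidases and hydrolases rose in 7 of 14 cases, among them the angiotensin-converting enzyme gene Ace (1.54 ± 0.20), while Dpp4 (-0.12) and Anpep (0.17) were not called and the aminopeptidase gene Xpnpep2 fell by 0.82. The structural genes of the microvillus had the lowest median of the 4 roles (0.48), and Vil1 (0.33), Espn and Ush1c were not called. Of 22 transcription factor genes of the intestine 1 rose, Creb3l3 (0.88), which drives apolipoprotein genes in mouse liver and gut, and 2 fell, Vdr (-0.64) and Foxa3 (-0.38). Without control replicate 4, 4 of these rose and 3 fell.

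Genes for handling foreign compounds rose with them. Of 32 cytochrome P450 genes of families 1 to 4, 16 rose and 1 fell. Cyp3a11, the main drug-metabolizing P450 of mouse intestine, read 9.31, 8.89, 9.35 and 9.24 in irradiated samples, against 7.54, 7.69, 7.42 and 7.46 in controls (1.67 ± 0.13), and Cyp2c29 rose by 1.24 ± 0.12. Cyp2s1 fell by 1.31 ± 0.16. Antioxidant genes under NRF2 rose in 11 of 22 cases and none fell (median 0.33), with heme oxygenase (Hmox1, 1.14), the sulfiredoxin gene Srxn1 (0.84) and both subunits of glutamate-cysteine ligase, Gclc (0.82) and Gclm (0.40). Nqo1 (0.31) and Txnrd1 (0.26) were not called. The cystine transporter gene Slc7a11, which supplies glutathione synthesis, rose by 1.53 ± 0.25. Glutathione transferase genes made up 7 of the 10 conjugation genes that rose of 29 tested. Median scaling left fewer calls in all of these groups, with 19 enterocyte, 8 cytochrome P450, 3 NRF2 and 2 conjugation genes higher.

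Among secretory cells, the hormones of enteroendocrine cells stood out. Of 9 hormone genes 8 rose, with differences of 0.80 (Gip) to 1.18 (Tac1). Cholecystokinin (Cck) read 9.67, 9.50, 9.81 and 9.90 in irradiated samples, against 8.68, 8.66, 8.75 and 8.72 in controls (1.02 ± 0.11), and neurotensin (Nts) 9.97, 9.66, 9.96 and 9.89, against 8.86, 8.65, 8.87 and 8.42 (1.17 ± 0.12). Neither gene overlapped between the groups. Glucagon (Gcg, 1.11), ghrelin (Ghrl, 1.10), somatostatin (Sst, 1.04) and peptide YY (Pyy, 1.02) rose by like amounts, though these peptides are made by different enteroendocrine subtypes, and secretin (Sct) was not called (0.17). None of 10 transcription factor genes of the lineage was called by limma (1 at an unadjusted p under 0.05), with Neurog3, the factor that starts it, at -0.19. At 24 h 4 of the 10 had risen, against 1200 of all 10798 genes, and the effect differed between 24 h and 48 h for 1 of the 10. Of the granule genes Chga (1.34 ± 0.32) and Tph1, the enzyme of serotonin synthesis (1.11), rose and 5 did not pass.

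Goblet cell genes rose in 5 of 15 cases and fell in 2, led by Zg16 (on the array as 1810010M01Rik, 1.44), Scin (1.32) and the mucus protein gene Clca3 (1.18), while Tff3 (0.15), Agr2 (0.06) and the lineage factor Spdef (-0.20) were not called. Without control replicate 3, 3 goblet cell genes rose and 1 fell. Paneth cell products rose in 5 of 14 cases, among them the angiogenin gene Ang4 (0.69), but lysozyme (Lyz1, 0.13) was not called, and under median scaling no Paneth gene was. The 5 rises were 2 or 3 without any single array other than irradiated replicate 1 or control replicate 4. Defensin genes are near-identical copies whose probes may share targets. Of the antimicrobial lectins, Reg3b read 12.45, 12.20, 12.37 and 12.39 in irradiated samples, against 10.55, 10.70, 10.63 and 10.41 in controls (1.77 ± 0.11), while its close relative Reg3g fell by 0.32. The fall of Reg3g was lost without any of 3 arrays (adjusted p up to 0.0654). Dmbt1, a secreted scavenger receptor gene of crypts, went opposite to Reg3b, with 9.35, 9.55, 9.30 and 9.12 in irradiated samples and 10.60, 10.38, 10.5 and 10.71 in controls (-1.22 ± 0.10). The tuft cell gene Rgs13, the only 1 of 5 called, was not detected in irradiated samples and was at least 1.09-fold lower (measured means 4.60 and 5.27, adjusted p = 0.00342).

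Genes of immune signalling moved in small numbers. The membrane chemokine gene Cxcl16 rose by 1.57 ± 0.19, with 9.28 to 9.82 in irradiated samples and 7.81 to 8.43 in controls, Il18 by 1.14 and Il33 by 1.34, and Ccl28 fell by 0.72. Of 11 interferon-stimulated genes 1 rose, Oasl1 (1.27). MHC genes rose in 6 of 22 cases and 1 fell, with H2-Q2 (1.42), H2-Q1 (1.27) and H2-T10 (1.24) ahead of B2m (0.32), the shared light chain. MHC class I genes are near-identical, and their probes may share targets.

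Hypoxia-inducible factor (HIF) targets and glycolysis genes were lower. All 20 tested had a negative difference, against 5981 of all 10798 genes, and 11 fell (median -0.41). Of the 20, 13 were detected on all 8 arrays of 48 h and 1 on none of them. Ankrd37 read 6.80, 6.87, 7.11 and 6.94 in irradiated samples, against 8.69, 8.55, 8.24 and 8.94 in controls (-1.68 ± 0.17). Pdk1, the kinase that diverts pyruvate from mitochondria, read 7.10, 7.20, 7.20 and 7.27, against 8.23, 8.28, 8.27 and 8.21 (-1.06 ± 0.11). Both were separated by about 1 unit or more. The collagen prolyl hydroxylase gene P4ha2 fell by 1.00, the oxygen sensor genes Egln3 and Egln1 by 0.78 and 0.73, the angiogenic factor gene Vegfa by 0.73 and lactate dehydrogenase (Ldha) by 0.48. The adenylate kinase gene Ak4 (on the array as Ak3l1) was not detected in irradiated samples and was at least 1.4-fold lower (measured means 4.71 and 5.63, adjusted p = 0.00347). The lactate exporter gene Slc16a3 was not detected in irradiated samples and was at least 1.45-fold lower (measured means 4.81 and 5.68, adjusted p = 0.00347). Pgk1 (-0.04), Slc2a1 (-0.09) and Eno1 (-0.18) were not called, and Pgk1 read below the dimmest detected probe of each irradiated array. The largest fall of all genes tested, named after its value was seen, was that of 4930583H14Rik, now Mgarp, a hypoxia-induced gene of mitochondrial transport. It was not detected in irradiated samples and was at least 9.56-fold lower (measured means 4.91 and 8.40, adjusted p = 6.81e-09). At 96 h 18 of the 20 were lower (median -0.99), against 366 of all 10798 genes. Of the 20 effects 8 differed between 48 h and 96 h, those of Pdk1 and Ldha not among them.

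HIF binds the letters ACGTG. On either strand of the 250 upstream bases they were present in 15 of the 18 HIF and glycolysis genes with a promoter in the table (83.3%), in 9 of the 10 that fell (90.0%) and in 2080 of 8226 genes tested (25.3%). The windows shown are a choice among the genes that fell and hold the letters, with matches in capitals: Ankrd37 (chr8:45999851-45999896, minus strand), P4ha2 (chr11:54100806-54100890, plus strand), Slc16a3 (chr11:120949013-120949066, plus strand), Egln1 (chr8:124949278-124949362, minus strand) and Ldha (chr7:46845730-46845803, plus strand).
Ankrd37: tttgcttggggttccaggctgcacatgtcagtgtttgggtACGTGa
P4ha2: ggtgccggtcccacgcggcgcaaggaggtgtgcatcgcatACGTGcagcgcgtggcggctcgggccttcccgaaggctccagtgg
Slc16a3: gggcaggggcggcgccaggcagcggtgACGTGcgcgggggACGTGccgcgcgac
Egln1: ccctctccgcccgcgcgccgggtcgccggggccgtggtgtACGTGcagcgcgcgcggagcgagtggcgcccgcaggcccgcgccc
Ldha: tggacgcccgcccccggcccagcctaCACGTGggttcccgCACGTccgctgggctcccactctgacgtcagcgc
In Ldha the first capitals hold the motif on both strands at once. The list holds genes known for HIF sites, so the share describes the list as much as these samples.

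Cholesterol synthesis was lower as well, with 10 of 21 genes fallen, none risen and a median of -0.31. The sterol carrier gene Stard4 read 7.79, 7.98, 8.09 and 7.93 in irradiated samples, against 8.51, 8.52, 8.89 and 8.65 in controls (-0.70 ± 0.11), with a gap between the groups. Srebf2, the master regulator of the pathway, fell by 0.51 ± 0.10 and the enzyme genes Ebp, Lss and Fdps by 0.61, 0.50 and 0.47. In the list of PPAR targets and enzymes that burn fatty acids, 3 of 18 members rose, Acaa1b (0.98) and Vnn1 (0.89) among them, and 1 fell.

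Large groups of housekeeping genes gave shares of calls below or near the background. Of 67 genes of oxidative phosphorylation 1 rose, Cox7a1 (0.70), and none of 19 genes of ribosome biogenesis was called by limma (5 at an unadjusted p under 0.05). Of 64 genes with ribosomal protein names 1 rose, the p53 target Rps27l (0.44), and 6 fell, led by Rps15a (-0.89) and Rpl27a (-0.78). Without control replicate 4, 5 oxidative phosphorylation genes rose and 10 ribosomal protein genes fell. Only 1 ribosomal protein gene fell without irradiated replicate 3, and 3 fell without irradiated replicate 4, control replicate 1 or control replicate 2. In the integrated stress response Ddit3 (CHOP) rose by 0.86, whereas the chaperone genes Hspa5, Hsp90b1 and Pdia6 fell by 0.31, 0.33 and 0.77.

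Several of the largest changes belonged to none of these groups. Mbl2, the mannose-binding lectin of the complement system, read 7.29, 7.08, 7.29 and 7.41 in irradiated samples, against 4.79, 4.81, 5.18 and 4.67 in controls (2.41 ± 0.18). It was detected on 1 of the 4 control arrays, and the difference lay between 1.24 and 2.65 over the other settings, lowest with no background correction. The proliferin genes Prl2c3 (2.32), Prl2c5 (2.24) and Prl2c4 (2.04), members of the prolactin family known from mouse placenta, rose together, but they are near-identical copies and their probes may share targets. The transporter gene Slc4a11 rose by 2.03, the LIM protein gene Crip2 by 1.96, the myelin and raft protein gene Mal by 1.93 and galectin 3 (Lgals3) by 1.90. The mast cell protease gene Mcpt2 was not detected in any control and was at least 2.62-fold higher (measured means 6.45 and 4.80, adjusted p = 4.63e-07). Among falls, the uroplakin gene Upk3b had a difference of -1.64, the photoreceptor nuclear receptor gene Nr2e3 of -1.52, the interferon-inducible GTPase gene Gvin1 of -1.51 and the actin regulator gene Kank1 of -1.37.

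How the effect at 48 h differed from the effects at the other times was tested gene by gene. Against 24 h, 27 genes had a more positive effect at 48 h (0.25%) and 80 a more negative one (0.741%). Against 96 h, 290 had a more positive effect (2.69%) and 87 a more negative one (0.806%). The 3 times lay on 3 chips, so each effect was taken within its chip before the effects were compared.

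Some genes rose more at 48 h than at either other time. Ivl had effects of -0.11 at 24 h, 1.89 at 48 h and 0.38 at 96 h (adjusted p of the change in effect 1.93e-05 against 24 h and 0.000114 against 96 h). Anxa8 had 0.76, 2.22 and 0.76, and Ecm1 0.38, 1.51 and 0.31. Dse, an epimerase gene of dermatan sulfate synthesis, read 7.03, 7.13, 6.77 and 6.65 in irradiated samples at 48 h, against 5.46, 5.13, 5.16 and 4.80 in controls, with effects of 0.47, 1.76 and 0.35 at the 3 times. The prostaglandin synthase gene Ptgs2 (COX-2) read 6.74, 6.52, 6.81 and 6.59 in irradiated samples, against 4.86, 5.26, 5.24 and 5.33 in controls, and its effects were 0.51, 1.49 and 0.32. In both genes every irradiated value lay at least 1 unit above every control. Cyp1a1 and Cyp1b1, classical targets of the aryl hydrocarbon receptor, also rose more at 48 h than at the other times. Their groups lay closer, 0.37 and 0.53 units apart. Cyp1a1 read 6.28, 6.18, 5.90 and 5.76 in irradiated samples, against 4.96, 4.98, 5.39 and 5.03 in controls, with effects of 0.08, 0.94 and 0.15, and Cyp1b1 had effects of 0.11, 0.93 and 0.21. The receptor gene Ahr (-0.14) and the further target Tiparp (-0.14), both looked up after these values were seen, were not called at 48 h. Nupr1, a stress-induced chromatin protein gene, changed direction, with -0.53 at 24 h, 0.64 at 48 h and -0.84 at 96 h. The glycine transporter gene Slc6a9 (-0.26, 0.63 and -0.64) did likewise, though its effect at 24 h was not called. Under median scaling the call of Nupr1 at 48 h was lost (adjusted p = 0.218).

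**Figure D4:**
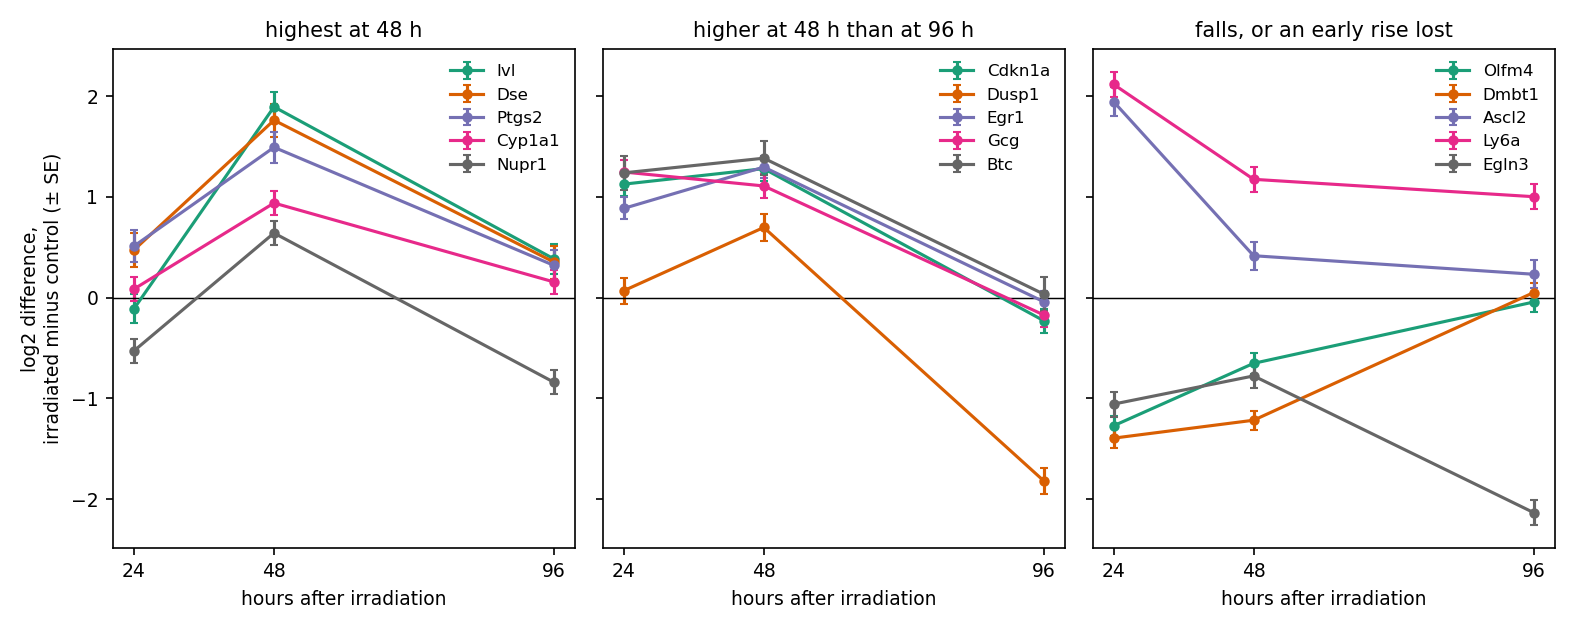
Lines join the log2 differences between irradiated and control organoids at 24, 48 and 96 h (x axis) for each gene, with bars of 1 standard error, in 3 panels. The left panel holds genes with their highest effect at 48 h (Ivl, Dse, Ptgs2, Cyp1a1 and Nupr1), the middle panel genes whose effect at 48 h exceeded that at 96 h (Cdkn1a, Dusp1, Egr1, Gcg and Btc), and the right panel genes that fell or lost an early rise (Olfm4, Dmbt1, Ascl2, Ly6a and Egln3).

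Against 96 h the largest positive change was that of Dusp1, a phosphatase gene of the stress-kinase pathway, with effects of 0.07, 0.70 and -1.82 at 24, 48 and 96 h. Cdkn1a went with it, at 1.13, 1.28 and -0.23 (adjusted p of the change from 48 h to 96 h = 1.5e-05), although Zmat3, Plk2 and Ccng1 had no called change. Egr1 (0.89, 1.30 and -0.04), Btc (1.24, 1.38 and 0.03), Gcg (1.25, 1.11 and -0.17) and Mbl2 (3.07, 2.41 and 0.61) also had a lower effect by 96 h, and the effects of 22 of 54 enterocyte genes and 6 of 9 hormone genes differed between these times. In the other direction Dmbt1 had effects of -1.40, -1.22 and 0.05, and Clca4 of -1.83, -1.17 and -0.15. Olfm4 had effects of -1.27, -0.65 and -0.04, with each neighbouring pair of times called different. Ascl2 had 1.95 at 24 h and 0.42 at 48 h, and its change was the largest among crypt base genes (adjusted p = 0.000297).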

How the data were processed

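Per the labels' protocols, RNA was amplified, biotin-labelled and hybridised to bead arrays. The authors deposited the mean bead signal of each probe as intensity on a linear scale, with detection p-values, per the file headers. They also deposited processed intensity values, used here only as an alternative. The software behind them is not stated in the sources at hand.

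Background was corrected by normexp from the detection p-values (offset 16), followed by quantile normalization over 24 arrays and log2 (neqc of limma 3.58.1, R 4.3.3, package data.table version 1.17.8). Probes with a detection p under 0.05 on 4 arrays or more stayed in (15056 of 25697). Each of 10798 genes was represented by its brightest probe, and in 1 of 2878 genes with several probes these were called in opposite directions. Summed marker levels add up 2 to the power of each log2 level. The linear model held 6 group means, without a replicate block, and all arrays shared one moderated variance per gene (limma, residual degrees of freedom 18, prior 3.965). Tests were two-sided, with Benjamini-Hochberg adjustment over all genes of a contrast. The number of arrays limits precision, and the median standard error was 0.17. For a gene that no array of a group detected, a lower bound of the fold is given. In it the dim group is set, array by array, to its own signal or to that of the dimmest detected probe, taking the higher one. On simulated data for this comparison (10798 genes), 80% of genes raised and 82% of genes lowered by 1 log2 unit were recovered, against 34% and 28% at 0.5 units. The simulation changed 50 genes per step and direction and gave all others no effect at 48 h. The data had 785 and 672 calls, and the adjusted threshold depends on how many genes change, so these shares need not hold for the data.

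Of 18138 array symbols, 14307 are current and 2927 matched as older names. Named genes are the 15 largest rises and falls without overlap (clone names left out), 14 fixed genes such as Cdkn1a and Lgr5 (10 of them tested), the 3 called members of each list and role with the largest change, uncalled members where a count would mislead, and 8 genes per direction for changes between times. Other genes are named as members of the lists or, where the text says so, after their values were seen. The comparison, lists and motifs were chosen with earlier results of these data known. Some genes that the rule would name are not reported here. Promoter sequences are RefSeq's. The same search covered the sterol element SRE, the AHR site, the E2F site and the cell cycle motif CHR. SRE was in 0 of 15 cholesterol genes tested, against 1.17% of all genes. The AHR site was in 0 of 16 cytochrome P450 genes that rose, against 7.49%. CHR was in 2 of 8 mitosis genes that fell and 9 of 27 tested, against 13.2%. The E2F site was in 2 of 10 replication genes that fell and 10 of 38 tested, against 10.6%. All counts are of genes with a promoter. Alternatives varied background, normalization, filters, variance model, covariate, block and left-out arrays, and list counts without single arrays were added after seeing the data.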

Additional observations from a re-analysis of the deposited data

Results flagged for a closer look

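Among the 32 genes whose array values are given, 3 of 64 groups held a sample far from the others by Dixon's criterion. Over all 249 named genes it was 25 of 498 groups (5.02%), and chance gives about 1 in 20. Areg read 9.10 in control replicate 4, against 9.46 to 9.54 in the other controls. In control replicate 3, Cyp1a1 read 5.39, against 4.96 to 5.03, and Egr1 read 9.62, against 9.32 to 9.33. Each of these values lay below every irradiated value of its gene.

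Of the 23 genes followed over time, those below had a called change of effect, given as the effect at 48 h minus the effect at the other time. Against both times the change was positive for Ivl (2.0 against 24 h and 1.51 against 96 h), Anxa8 (1.46 and 1.46), Dse (1.29 and 1.41), Ecm1 (1.13 and 1.2), Nupr1 (1.17 and 1.48), Ptgs2 (0.98 and 1.17), Slc6a9 (0.89 and 1.28), Cyp1a1 (0.85 and 0.78) and Cyp1b1 (0.82 and 0.72). Olfm4 was less negative than at 24 h (0.62) and more negative than at 96 h (-0.61). The effects of Ascl2 (-1.53) and Ly6a (-0.94) were lower than at 24 h. Against 96 h the effect at 48 h was higher for Dusp1 (2.52), Mbl2 (1.8), Cdkn1a (1.51), Btc (1.35), Egr1 (1.34) and Gcg (1.28), and lower for Dmbt1 (-1.27) and Clca4 (-1.03). The times lie on separate chips, each with its own controls.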

How the results depend on the processing

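Of the counts reported (785 genes higher, 672 lower, 107 with another effect at 24 h and 377 with another effect at 96 h), median scaling gave 400 higher, 33 and 121 with another effect at 24 h and 96 h, and array weights gave 1343 lower and 316 with another effect at 24 h. A threshold of 0.01 gave 514, 297, 45 and 140. With only the arrays of the times compared, 240 genes differed between 48 h and 96 h. Leaving out single arrays gave 426 to 787 lower genes, with 426 without irradiated replicate 3 and 437 without irradiated replicate 4 or control replicate 3. It gave 69 to 101 genes with another effect at 24 h, with 69 without irradiated replicate 2 and 71 without control replicate 3. The other counts under these and the remaining settings lay within 1.5 times the reported ones. The replicate numbers were not taken as pairs, since the deviations of same-numbered samples correlated at -0.408 to 0.297, and the fit with the replicate block gave 746, 598, 72 and 263. Gene by gene, the settings were kept for 242 of the 249 named genes. Mgarp, Ptgs2, Lgals3, Mcpt2, Slc6a9, Ahr and Tiparp were not among them. Of the 242, no called gene changed direction in any setting, while 20 of 51 uncalled ones did. Of the 51 uncalled genes 11 were called in some setting, Vil1 in 9 of 23. Of the 191 called, 30 lost the call under median scaling and 24 when some array was left out. Besides those given with their results, left-out arrays ended the calls of Krt4, Dgat1, Gclc, B2m, Egln1, Rps15a, Rpl27a, Hspa5, Pdia6 and Acta2 (adjusted p up to 0.161), and median scaling those of S100a10, Krt23, Slc5a1, Gclc, Gclm, Ang4, B2m, Cox7a1, Rps27l, Ddit3, Dusp1 and Acta2. With the mean of a gene's probes the calls of B2m, Ccnd3, Cdk2, Cyr61, Ddit3, Gls2, Slc16a3 and Xpnpep2 were also lost. Under median scaling 15 p53 targets were higher, against 21, and 4 immediate early genes, against 7. Under median scaling 3 goblet cell genes were higher, against 5. Genes that no array of a group detected are limited to bounds, and Ddit4l, Dll1, Mfng, Cyp1a1, Ecm1, Plau, Prl2c5, Upk3b, Gvin1 and Cybrd1 were detected on only 1 or 2 arrays of their dimmer group.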

Other observations

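Receptors and junctions of the epithelium moved in few members. Of 20 integrin and laminin genes 5 rose and 1 fell. Among the rises were Itgb4 (0.93) and Itga3 (0.64), whose integrins bind laminins of the basement membrane, and Itgb6 (0.41). Of 18 junction genes the claudin genes Cldn4 (0.79) and Cldn23 (0.79) rose. Cldn11 was not detected in irradiated samples and was at least 1.06-fold lower (measured means 4.58 and 5.23, limma adjusted p = 0.0104). Under median scaling the calls of Itga3, Itgb6 and Cldn23 were lost.

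Of 12 genes of metal handling 2 rose, hephaestin (Heph, 0.67), which helps iron leave the enterocyte, and the zinc importer gene Slc39a4 (0.78). The transferrin receptor gene Tfrc fell by 0.45. Further iron genes were set beside these after the values were seen. The iron exporter gene Slc40a1 (ferroportin), already counted among the uptake genes that rose, rose by 0.79. The ferric reductase gene Cybrd1 had effects of -0.54 at 24 h, 0.54 at 48 h and -0.51 at 96 h. Median scaling ended the calls of Heph and Slc40a1, and single left-out arrays those of Tfrc and Cybrd1 (adjusted p up to 0.0656 and 0.136). Of 13 senescence genes 3 rose and 2 fell (1 to 3 without single arrays), the nuclear lamina gene Lmnb1 by 0.46.

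For 3 transcripts, chosen after their values were seen, the rise at 48 h was smaller than at 24 h by the test of the difference. Cxcr5, a chemokine receptor gene known from B cells, had effects of 2.89 at 24 h, 0.98 at 48 h and -0.09 at 96 h, the kinase gene Stk10 2.56, 0.66 and -0.36, and the matrix gene Fmod 2.84, 1.00 and 0.02. The call of Stk10 at 48 h was lost under median scaling and when single arrays were left out (adjusted p up to 0.123).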
